A study of Mus musculus with 12 samples.

Results

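The antioxidant enzymes described here are 10 genes, Sod1, Sod2, Sod3, Cat, Gpx1, Gpx3, Gpx4, Prdx1, Txnrd1 and Hmox1, whose rows were taken by gene name from the count tables of the dim tdTomato and the bright tdTomato cells. All 10 were listed in both tables, among 17811 genes in the dim table and 17521 in the bright table, of which 15768 were in both. The libraries came from glomeruli isolated from the renal cortex of C57BL/6 mice aged 4 months that carried a tdTomato reporter switched on by Cre recombinase under the Tek promoter (reporter label TekCre tdTomato), which drives expression in endothelial cells and in part of the haematopoietic lineage. Wild-type (WT) mice were compared with mice labelled Col4a5 -/-, a mouse form of Alport syndrome (AS), a hereditary kidney disease of the collagen IV network. From each of 3 mice per genotype, cells with dim and with bright tdTomato (tdT) signal were sorted separately, which gave 12 libraries in 4 groups of 3, named WT-dim tdT, AS-dim tdT, WT-bright tdT and AS-bright tdT. The dim and the bright library with the same number came from the same mouse, whereas mouse 1 of WT and mouse 1 of AS are different animals. The reporter and the Cre were shared by all groups, and no group lacking them was analysed here.

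These enzymes form a relay that removes reactive oxygen species. Superoxide dismutases convert superoxide to hydrogen peroxide, which catalase, the glutathione peroxidases and the peroxiredoxins then reduce, and thioredoxin reductase uses NADPH to return the thioredoxin that serves the peroxiredoxins to its reduced form. Heme oxygenase 1 degrades heme and is a classical stress-induced gene. In the kidney the proximal tubule, which is rich in mitochondria and peroxisomes, is known for high catalase and is the source of plasma glutathione peroxidase, and macrophages are known for heme oxygenase 1 because they recycle heme iron.

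The libraries held 11440169 to 15074909 counts on genes. Col4a5 was at 37.1 to 73.9 CPM (counts scaled to a common library size) in WT-dim tdT and at 1.36 to 3.60 CPM in AS-dim tdT, whereas in the bright cells it had 69 to 158 counts per library in WT and 43 to 104 in AS, so that the targeted gene separated the genotypes in dim but not in bright libraries. The label of all 12 samples is glomerular endothelial cells. In the bright libraries the summed CPM of 14 endothelial markers ran from 10867 to 19145, and 13 of 18 leukocyte markers were listed, with a sum of 54.9 to 152 CPM. In the dim libraries this was turned round, with endothelial sums of 754 to 1375 CPM in WT and 234 to 321 CPM in AS, and leukocyte sums of 8852 to 15173 CPM in WT and 17021 to 19615 CPM in AS over all 18 markers. The transcripts of the dim libraries therefore went against the label, and these cells are called here by their sort gate alone. Both libraries of WT mouse 1 and of AS mouse 2 stood apart in 14 proximal tubule markers. The sum was 9347 CPM in WT-dim tdT mouse 1 against 1958 and 2041 CPM in the other WT-dim tdT mice, 3843 against 584 and 904 CPM in WT-bright tdT, 572 against 24.3 and 47.3 CPM for AS mouse 2 in AS-dim tdT, and 822 against 44.3 and 53.5 CPM in AS-bright tdT.

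**Figure D1:**
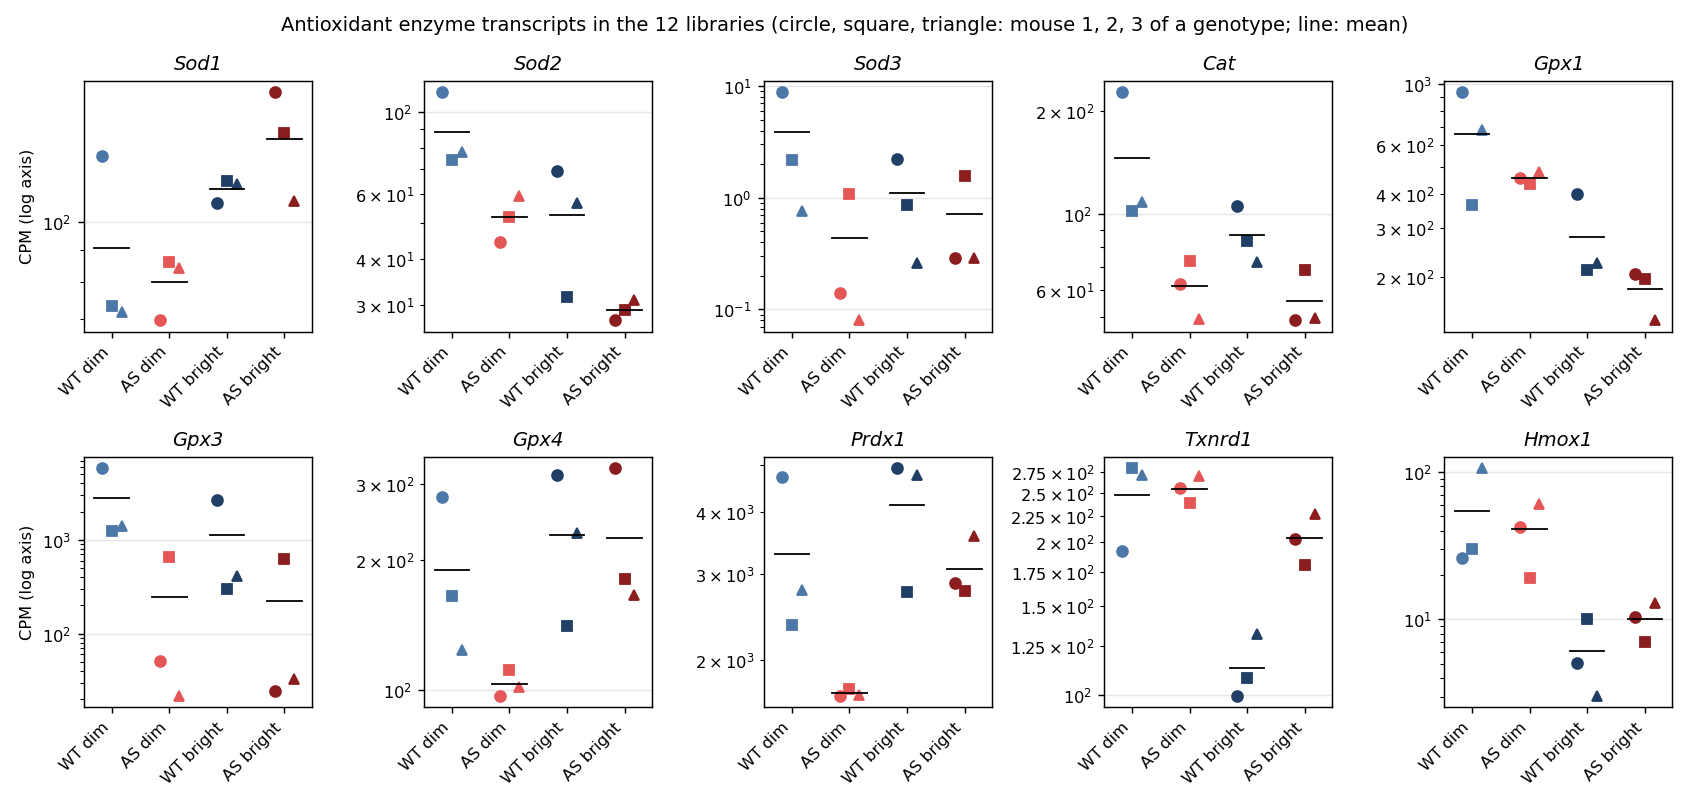
CPM of each antioxidant enzyme (log axis, scaled over all 12 libraries) in the 4 groups, with 1 symbol per library, the same symbol for the dim and bright cells of one mouse, and a line at the group mean. Prdx1 lay between 1691 and 4923 CPM in every library, whereas Gpx3 ran from 21.6 to 5820 CPM, with WT mouse 1 and AS mouse 2 highest in their groups.

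Prdx1, a peroxiredoxin that reduces hydrogen peroxide in the cytosol, was the most abundant of the enzymes per length in every group but WT-dim tdT, where Gpx3, the secreted glutathione peroxidase of plasma, averaged higher. In the deposited RPKM (reads scaled to gene length and to library size), Prdx1 averaged 554 ± 200 in WT-dim tdT, 305 ± 2.53 in AS-dim tdT, 751 ± 239 in WT-bright tdT and 535 ± 72.1 in AS-bright tdT (mean ± SD, n = 3 each). Gpx3 averaged 853 ± 766 RPKM in WT-dim tdT, where the libraries of both genes overlapped. It was above Prdx1 there in mouse 1 alone (1737 against 782 RPKM) and below it in mice 2 (388 against 411 RPKM) and 3 (434 against 470 RPKM). In WT-bright tdT Gpx3 averaged 377 ± 455 RPKM, and its libraries overlapped with those of Prdx1. It averaged 78.3 ± 115 and 71.4 ± 108 RPKM in AS-dim tdT and AS-bright tdT, where it ranked 4 and 3. Sod3, the extracellular superoxide dismutase, was lowest in all 4 groups, at 0.989 RPKM or less on average and between 1 and 100 counts per library. In AS-dim tdT the order below Prdx1 was Gpx1, Sod1, Gpx3, Gpx4, Cat, Hmox1, Txnrd1 and Sod2. Each neighbouring pair from Gpx1 down to Sod2 overlapped in its libraries, so that the order of neighbours was not resolved. Gpx3 ran from 6.94 to 211 RPKM there. Gpx1 and Sod1, with a lowest library of 110 RPKM, lay above Gpx4, Cat, Hmox1, Txnrd1 and Sod2, with a highest library of 26.1 RPKM. In WT-bright tdT the steps from Cat to Sod2, from Sod2 to Txnrd1 and from Txnrd1 to Hmox1 did not overlap. The place of a gene in this order also depended on the gene length used. The deposited length of Txnrd1 was 18257 bases against 3622 bases for its longest coding transcript, and with the latter Txnrd1 moved from rank 9 to rank 6 in WT-dim tdT. Gpx4, with 4779 deposited bases against 995, moved from rank 5 to rank 2 in AS-bright tdT.

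Gpx1, Gpx3, Gpx4 and Txnrd1 are selenoenzymes, whose messenger RNA reads a TGA codon as selenocysteine. A scan of the longest coding sequence of each gene (Gencode M21, GRCm38) found an in-frame TGA before the stop codon in exactly these 4 of the 10 genes, 1 in each. The windows below show that codon in capitals, written 5′ to 3′ on the coding strand with 4 codons before it and up to 4 after it.
Gpx1: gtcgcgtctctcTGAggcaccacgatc
Gpx3: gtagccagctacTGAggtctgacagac
Gpx4: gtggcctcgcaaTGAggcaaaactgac
Txnrd1: cagtctggctgcTGAggttaa
The codon lies in exon 1 of Gpx1 at chr9:108339451-108339453, in exon 2 of Gpx3 at chr11:54907256-54907258, in exon 3 of Gpx4 at chr10:80054737-80054739 and in exon 15 of Txnrd1 at chr10:82896037-82896039, all on the plus strand. In the glutathione peroxidases it was codon 47 of 202, 73 of 227 and 129 of 254, and in Txnrd1 it was codon 612 of 614, with 1 glycine codon between it and the stop codon. The remaining 6 enzymes do not use selenium. The 4 selenoenzymes did not share a direction between the cell populations, as described next.

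Comparing the bright with the dim cells of the AS mice showed the antioxidant enzymes split in direction. Sod1, Gpx4 and Prdx1 were 1.69-fold, 2.16-fold and 1.78-fold higher in AS-bright tdT, whereas Sod2, Gpx1 and Hmox1 were 1.80-fold, 2.55-fold and 4.07-fold lower. With edgeR's quasi-likelihood test, adjusted over all 14052 genes tested, these 6 of the 9 enzymes tested passed an adjusted p of 0.05, 3 in each direction, in a comparison where 55.1% of all genes did (28.6% higher and 26.5% lower). The share of the enzymes called was thus near that of all genes. The median log2 fold change of the 9 enzymes was -0.15 against 0.02 for all genes tested. Cell markers moved in the same comparison, with 14 of 14 endothelial and 6 of 6 mesangial and mural markers higher and 13 of 13 leukocyte markers lower. Their part in the enzyme differences was not tested. Sod3 was left out by the filter on low counts, with 1 to 13 counts in AS-dim tdT and 4 to 24 in AS-bright tdT.

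**Figure D2:**
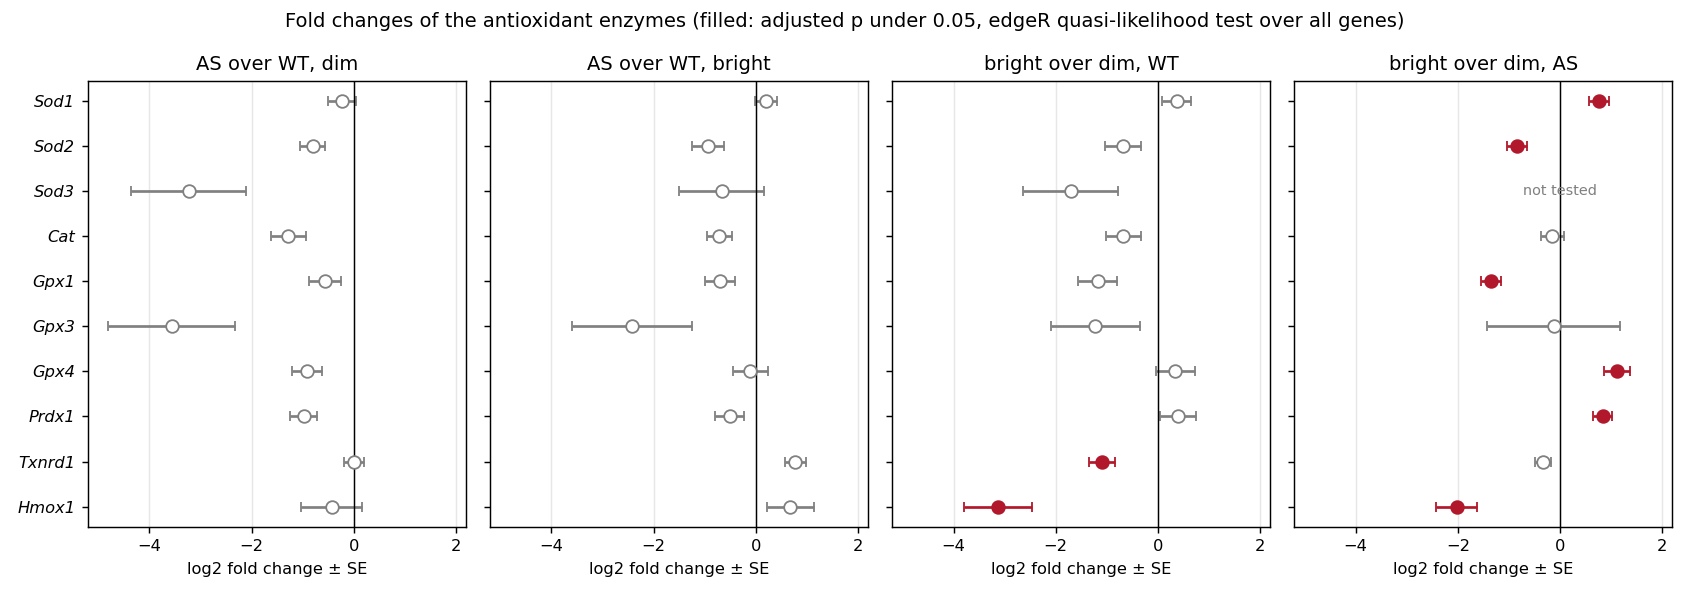
Log2 fold change with its standard error (edgeR, horizontal axis) for each antioxidant enzyme in the 4 comparisons, with filled points where the adjusted p was under 0.05. Filled points are seen in the bright over dim panels alone, 2 in WT and 6 in AS, and the widest bars are those of Gpx3 and Sod3.

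Sod1, the cytosolic copper-zinc superoxide dismutase, was at 69.6, 86.2 and 84.2 CPM in AS-dim tdT mice 1 to 3 and at 161, 138 and 108 CPM in the bright cells of the same mice. Every AS-bright tdT library was above every AS-dim tdT library, and the log2 fold change was 0.75 (SE 0.20, adjusted p = 0.00852). Sod2, the manganese superoxide dismutase of the mitochondrial matrix, went the other way, at 44.4, 51.9 and 59.3 CPM in AS-dim tdT and 27.2, 29.0 and 30.9 CPM in AS-bright tdT. These groups did not overlap either, and the log2 fold change was -0.84 (SE 0.19, adjusted p = 0.0043).

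The glutathione peroxidases also differed among themselves. Gpx1, the abundant cytosolic form, was at 456, 433 and 480 CPM in AS-dim tdT and at 204, 197 and 139 CPM in AS-bright tdT, a log2 fold change of -1.35 (SE 0.19, adjusted p = 0.00018) with no overlap. Gpx4, which reduces lipid hydroperoxides in membranes and guards cells from ferroptosis, was at 97.1, 112 and 102 CPM in AS-dim tdT and at 327, 181 and 167 CPM in AS-bright tdT. All bright libraries were higher, with mouse 1 highest, and the log2 fold change was 1.11 (SE 0.25, adjusted p = 0.00416). Gpx3 did not pass, at a log2 fold change of -0.12 with an SE of 1.31. Its values of 51.4, 665 and 21.6 CPM in AS-dim tdT and 24.2, 618 and 32.9 CPM in AS-bright tdT differed far more between mice than between the dim and bright cells of a mouse, and the mouse that was high in both was AS mouse 2, the mouse with the high proximal tubule marker sums. The part of those markers in Gpx3 was not tested in this comparison.

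Prdx1 was at 1691, 1743 and 1703 CPM in AS-dim tdT and at 2876, 2761 and 3580 CPM in AS-bright tdT. The AS-dim tdT libraries lay close together and below all the bright ones, and the log2 fold change was 0.83 (SE 0.18, adjusted p = 0.00325). Txnrd1, the cytosolic thioredoxin reductase, was at 256, 239 and 269 CPM in AS-dim tdT and at 203, 180 and 227 CPM in AS-bright tdT, and did not pass although the groups did not overlap (log2 fold change -0.33, SE 0.16, adjusted p = 0.102). Cat, the peroxisomal catalase, had a log2 fold change of -0.15 (SE 0.22, adjusted p = 0.593), with overlapping groups.

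Hmox1, the inducible heme oxygenase, showed the largest fold of the enzymes that passed in either genotype. It was at 42.2, 19.0 and 61.0 CPM in AS-dim tdT and at 10.4, 7.05 and 12.9 CPM in AS-bright tdT, with a log2 fold change of -2.02 (SE 0.41, adjusted p = 0.00197). In WT it was at 26.1, 30.2 and 106 CPM in the dim cells and at 5.06, 10.1 and 3.03 CPM in the bright cells, an 8.76-fold lower level (log2 fold change -3.13, SE 0.67, adjusted p = 0.00819). Leaving out 1 library gave log2 fold changes of -3.66 to -2.17 in WT. In both genotypes every dim library was above every bright library. The sum of the 10 macrophage markers, of which 9 were listed in the bright table, was likewise higher in the dim cells of both genotypes. It was at 4623 to 8637 CPM in WT-dim tdT, 9892 to 12906 CPM in AS-dim tdT, 170 to 244 CPM in WT-bright tdT and 261 to 370 CPM in AS-bright tdT. From WT to AS in the dim cells this sum rose, whereas Hmox1 had a log2 fold change of -0.44 (SE 0.59) with overlapping groups. Of the 9 markers tested 8 passed as lower in each genotype, whereas Mrc1, named after its values were seen, was at a log2 fold change of 1.22 (SE 0.41, adjusted p = 0.0604) in WT and passed as higher in AS at 1.05 (SE 0.22, adjusted p = 0.00243). The part of these markers in the Hmox1, Gpx1 and Sod2 differences was not tested, and in such bulk samples fewer cells of a type and less RNA per cell cannot be told apart.

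**Figure D3:**
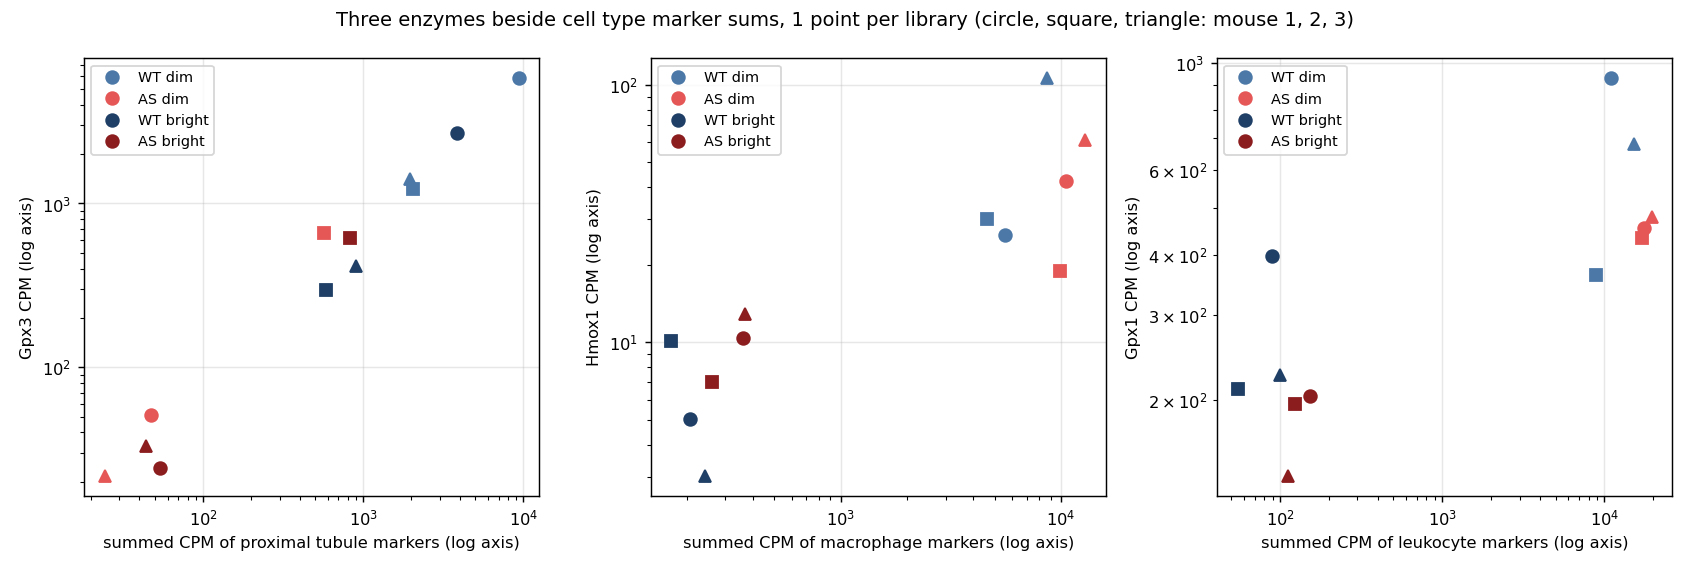
CPM of Gpx3, Hmox1 and Gpx1 (vertical log axes) beside the summed CPM of proximal tubule, macrophage and leukocyte markers (horizontal log axes), with 1 symbol per library and the same symbol for the dim and bright cells of one mouse. Gpx3 rises with the proximal tubule sum across all 4 groups, with WT mouse 1 at the top. The Hmox1 and Gpx1 panels show a dim and a bright cluster, set apart along the marker sums. In Gpx1 itself the cells overlap, with WT-bright tdT mouse 1 (398 CPM) above WT-dim tdT mouse 2 (363 CPM).

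In the WT mice Hmox1 and Txnrd1 were lower in WT-bright tdT than in WT-dim tdT and were the 2 of 10 enzymes that passed, in a comparison where 25.3% of the 14247 genes tested passed and 11.5% passed as lower. Txnrd1 was at 193, 280 and 271 CPM in WT-dim tdT and at 99.6, 108 and 132 CPM in WT-bright tdT, 2.13-fold lower with no overlap (log2 fold change -1.09, SE 0.25, adjusted p = 0.0124). Without the WT-bright tdT library of mouse 2 its adjusted p was 0.053. The median log2 fold change of the 10 enzymes was -0.89 against -0.04 for all genes tested.

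Gpx1 did not pass in WT, at 932, 363 and 681 CPM in the dim and 398, 211 and 225 CPM in the bright cells (log2 fold change -1.18, SE 0.39, adjusted p = 0.0532). In each mouse the bright value was the lower one, but the groups overlapped. Gpx1 passed with DESeq2 (adjusted p = 0.02), with RLE scaling (0.0417), with the likelihood ratio test (0.021) and with all 12 libraries in one fit (0.00904). With the mouse as a block, which pairs the dim and bright library of each animal, Gpx1 (adjusted p = 0.00601), Gpx3 (0.00227) and Sod3 (0.0333) passed as lower beside Hmox1 and Txnrd1, so that 5 enzymes passed. Gpx3 was at 5820, 1234 and 1418 CPM in WT-dim tdT and at 2677, 297 and 415 CPM in WT-bright tdT, and its blocked log2 fold change was -1.60 (SE 0.24), against -1.22 (SE 0.87) without the block. In the same mice the proximal tubule sum was lower in the bright cells as well, and its part was not tested. Without the WT-bright tdT library of mouse 1, the one with the high proximal tubule sum, 4 enzymes passed without the block, Gpx1 and Gpx3 beside Hmox1 and Txnrd1. How many of all genes passed in these other tests and fits, the block among them, is not given here. Sod1, Gpx4 and Prdx1, which were higher in AS-bright tdT, had log2 fold changes of 0.36, 0.34 and 0.40 in WT with overlapping groups and adjusted p values of 0.368, 0.547 and 0.44. Sod2 was at -0.68 (SE 0.35, adjusted p = 0.186) and Cat at -0.68 (SE 0.34, adjusted p = 0.184).

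The comparison of AS with WT in the dim cells asked how the enzymes differ with the disease genotype within one subpopulation. In AS-dim tdT the levels of Cat, Prdx1, Sod2, Gpx4 and Gpx3 were below those of every WT-dim tdT library, by 2.43-fold, 1.97-fold, 1.75-fold, 1.89-fold and 11.8-fold, but 0 of the 10 enzymes passed an adjusted p of 0.05 with edgeR's quasi-likelihood test, where 8.63% of the 14637 genes tested passed (6.42% as lower). At an unadjusted p under 0.05 there were 6 enzymes, all lower (Sod2, Sod3, Cat, Gpx3, Gpx4 and Prdx1), against 15.9% of all genes, and 5 were lower with no overlap between the groups, against 16.2% of all genes. The log2 fold change was below 0 for 9 of the 10, against 51.1% of all genes, and its median was -0.86 against -0.02. The study had itself singled out antioxidant scavengers in these libraries, so that the direction of the list is not independent evidence. DESeq2 passed 4 enzymes as lower (Sod2, Cat, Gpx4 and Prdx1), and edgeR's likelihood ratio test also passed 4 (Sod3, Cat, Gpx3 and Prdx1). No share of all genes is given for those tests, so that these counts have no background beside them.

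Catalase stood at 227, 102 and 109 CPM in WT-dim tdT and at 62.3, 73.2 and 49.6 CPM in AS-dim tdT, with a log2 fold change of -1.28 (SE 0.35, adjusted p = 0.0575). WT mouse 1 was the highest, and no AS library reached the lowest WT library. Prdx1 was at 4733, 2359 and 2774 CPM in WT-dim tdT, against the 1691 to 1743 CPM of AS-dim tdT given above (log2 fold change -0.98, SE 0.26, adjusted p = 0.0567). Again WT mouse 1 was highest, and all AS libraries lay below the lowest WT library.

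Sod2 was at 113, 74.2 and 77.7 CPM in WT-dim tdT (log2 fold change to AS -0.80, SE 0.25, adjusted p = 0.0815) and Gpx4 at 281, 165 and 124 CPM (log2 fold change -0.91, SE 0.30, adjusted p = 0.0982). For Gpx4 the lowest WT library, 124 CPM, was near the highest AS library, 112 CPM. Gpx3 fell short of the threshold in spite of its fold, with a log2 fold change of -3.57 (SE 1.24, adjusted p = 0.112), and without the AS-dim tdT library of mouse 2 it passed at -6.34 (SE 0.94, adjusted p = 0.0291), the 1 enzyme that did so in that fit. Without the WT-dim tdT library of mouse 1, the one with the high proximal tubule sum, Gpx3 was at -2.46 (SE 1.16, adjusted p = 0.251). In that fit no enzyme passed, without the WT-dim tdT library of mouse 2 there were 2 (Gpx1 and Prdx1), and without that of mouse 3 there were 4 (Sod3, Cat, Gpx4 and Prdx1), all lower. A share of all genes is not given for these fits either.

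Sod3 had 100, 26 and 9 counts in WT-dim tdT and 2, 13 and 1 counts in AS-dim tdT. The groups overlapped, the gene passed the filter on low counts through WT, and the log2 fold change was -3.23 (SE 1.12, adjusted p = 0.101). Fits without 1 library gave -5.05 to -1.83 for Sod3. Sod1, Gpx1, Txnrd1 and Hmox1 overlapped between the genotypes in the dim cells. Their log2 fold changes were -0.22 (SE 0.27), -0.56 (SE 0.31), 0.01 (SE 0.19) and -0.44 (SE 0.59), with adjusted p values of 0.664, 0.292, 0.986 and 0.694. The error of Hmox1 was the widest of these 4, with 1 WT-dim tdT library at 106 CPM and the others at 26.1 and 30.2 CPM.

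Other cell markers moved with the genotype in the dim cells. The proximal tubule sum was 1958 to 9347 CPM in WT-dim tdT and 24.3 to 572 CPM in AS-dim tdT with all 14 markers detected in each library, and the leukocyte sum was higher in AS. The distal nephron sum was lower in AS as well, at 683 to 1646 CPM in WT-dim tdT and 40.8 to 255 CPM in AS-dim tdT, and 5 of 5 of these markers tested passed as lower. Of the endothelial markers 9 of 13 passed as lower, and of the macrophage markers 4 of 10 passed as higher. Of 5 mesangial and mural markers tested 0 passed and 4 had an unadjusted p under 0.05 as lower, and of 3 erythroid markers 0 had one in either direction. With the mean log2 CPM of the proximal tubule markers as a covariate, 0 enzymes passed and the log2 fold change of Gpx3 was 0.78 (SE 0.32) and that of Cat was -0.12 (SE 0.57). With the leukocyte markers as a covariate, 0 passed and the log2 fold changes of Cat, Prdx1, Sod2 and Gpx4 were 0.033 (SE 0.63), 0.070 (SE 0.44), 0.082 (SE 0.43) and 0.57 (SE 0.43). Since the proximal tubule and leukocyte sums separate the genotypes in the dim libraries, with no overlap, their share and that of the genotype cannot be told apart in 6 libraries.

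In the bright cells, where the marker sums fit the endothelial label, 0 of the 10 enzymes passed edgeR's quasi-likelihood test, against 0.452% of the 14396 genes tested. With no adjustment 4 had a p under 0.05, Txnrd1 higher and Sod2, Cat and Gpx1 lower, against 21.8% of all genes (9.98% higher and 11.9% lower). DESeq2, for which no share of all genes is given, passed 2 of them, Txnrd1 (adjusted p = 0.0169) and Sod2 (adjusted p = 0.049). Txnrd1 was at 99.6 to 132 CPM in WT-bright tdT and 180 to 227 CPM in AS-bright tdT, 1.71-fold higher in AS with no overlap (log2 fold change 0.78, SE 0.20, edgeR adjusted p = 0.081). Sod2 was at 69.4, 31.5 and 56.8 CPM in WT-bright tdT, all above the 27.2 to 30.9 CPM of AS-bright tdT, although WT mouse 2 was close to them (log2 fold change -0.94, SE 0.31, adjusted p = 0.13). Without that library Sod2 passed, at -1.21 (SE 0.24, adjusted p = 0.0455).

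Cat was at 105, 83.8 and 72.5 CPM in WT-bright tdT and 49.0, 68.9 and 49.7 CPM in AS-bright tdT (log2 fold change -0.72, SE 0.25, adjusted p = 0.142), with AS mouse 2 close to the WT range. For Gpx1 the log2 fold change was -0.71 (SE 0.29, adjusted p = 0.195), with no overlap. These 3 lower enzymes without overlap compare with 10.9% of all genes. Gpx3 had a log2 fold change of -2.42 (SE 1.18, adjusted p = 0.261), and 1 library decided whether it passed, since without AS-bright tdT mouse 2 it was -5.41 (SE 1.03, adjusted p = 0.0406), while without WT-bright tdT mouse 1 it was -0.68 (SE 1.02, adjusted p = 0.755). Prdx1, at 4923, 2753 and 4756 CPM in WT-bright tdT, overlapped with AS-bright tdT (log2 fold change -0.51, SE 0.29, adjusted p = 0.325). Sod1, Sod3, Gpx4 and Hmox1 overlapped too, with log2 fold changes of 0.20 (SE 0.21), -0.67 (SE 0.84), -0.11 (SE 0.34) and 0.68 (SE 0.46). The median of the 10 enzymes was -0.59 against -0.03 for all genes tested.

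The proximal tubule markers had negative log2 fold changes for AS over WT in the bright cells too. With no adjustment 12 of 14 proximal tubule markers had a p under 0.05 as lower in AS, with a median log2 fold change of -2.54, although 0 passed the adjusted threshold, and their sums of 584 to 3843 CPM in WT-bright tdT and 44.3 to 822 CPM in AS-bright tdT overlapped. Of the distal nephron markers 5 of 6 had an unadjusted p under 0.05 as lower, with a median log2 fold change of -2.81 and 0 past the adjusted threshold, and their sums of 381 to 526 CPM in WT-bright tdT and 23.4 to 217 CPM in AS-bright tdT did not overlap. Of the endothelial markers 6 of 14 had an unadjusted p under 0.05 as higher, with a median of 0.45, and 0 passed the adjusted threshold. With the mean of the proximal tubule markers as a covariate 0 enzymes passed and the log2 fold change of Gpx3 turned to 0.58 (SE 0.34). With the leukocyte markers as a covariate 3 enzymes passed as lower, Sod2 (-1.29, adjusted p = 0.0316), Gpx1 (-1.19, adjusted p = 0.0157) and Gpx3 (-5.04, adjusted p = 0.00516). The leukocyte sums of 54.9 to 100 CPM in WT-bright tdT and 112 to 152 CPM in AS-bright tdT did not overlap. Their share and that of the genotype therefore cannot be told apart here, and how many of all genes passed this fit is not given.

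Whether the effect of the genotype differed between the bright and the dim cells was tested as an interaction over all 12 libraries. None of the 10 enzymes passed edgeR's quasi-likelihood test, against 3.77% of the 15084 genes tested, and DESeq2 also passed 0. Txnrd1 was the 1 enzyme at an unadjusted p under 0.05, against 18.5% of all genes, with a difference of log2 fold changes (bright minus dim) of 0.81 (SE 0.28, edgeR adjusted p = 0.136). For Gpx3 and Sod3 the SE of this difference was 1.86 and 1.62, the widest of the 10, and for Sod2 and Gpx1 it was -0.09 (SE 0.40) and -0.10 (SE 0.45). The enzymes that passed in one genotype or cell population and not in the other are therefore not shown to differ between them. A single gene compared by an exact two-sided permutation test of 3 against 3 libraries could not go below p = 0.1, so no such test is given.

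Around these enzymes, 85 other redox genes were read from 12 lists by role. In AS-dim tdT against WT-dim tdT, 1 of the 82 tested was higher and 11 were lower, where 2.21% of all genes were higher and 6.42% lower. The lower ones included 5 of 9 glutathione transferases tested, among them Gstm5 with the lowest log2 fold change (-5.09, SE 0.90, adjusted p = 0.0217), Gstk1 (-2.54, SE 0.51) and Mgst3 (-2.42, SE 0.41). They also included Gclm, the modifier subunit of glutamate-cysteine ligase (-1.27, SE 0.30), Ggt1, which cleaves extracellular glutathione (-4.56, SE 0.85), Txn2, the mitochondrial thioredoxin (-0.82, SE 0.19), and Idh2 and Me1, which supply NADPH (-2.29, SE 0.32, and -3.90, SE 0.83). In AS-dim tdT Gstm5 had 0 to 19 counts, Me1 3 to 39 and Ggt1 7 to 87, against 95 to 544, 125 to 453 and 376 to 1482 in WT-dim tdT. Gstm5, Me1 and Ggt1 passed the filter on low counts through WT, and the size of their folds rests on these few AS counts. The higher gene was Cybb, the catalytic subunit of the phagocyte NADPH oxidase (1.15, SE 0.17, adjusted p = 0.0185). The regulators of the Nrf2 pathway, which switches on many of these enzymes, included 0 of 8 that passed, and at an unadjusted p under 0.05 there were 2, both higher, against 10.3% of all genes. In the bright cells 0 of 82 passed with edgeR's quasi-likelihood test, while 6 had an unadjusted p under 0.05 as higher and 10 as lower, against 9.98% and 11.9% of all genes, and DESeq2 passed 2, both higher. With the leukocyte markers as a covariate 10 passed in the bright cells, all lower, and in the dim cells 0 passed. No share of all genes is given for this covariate or for DESeq2, and the leukocyte sums of the genotypes did not overlap in either population.

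**Figure D4:**
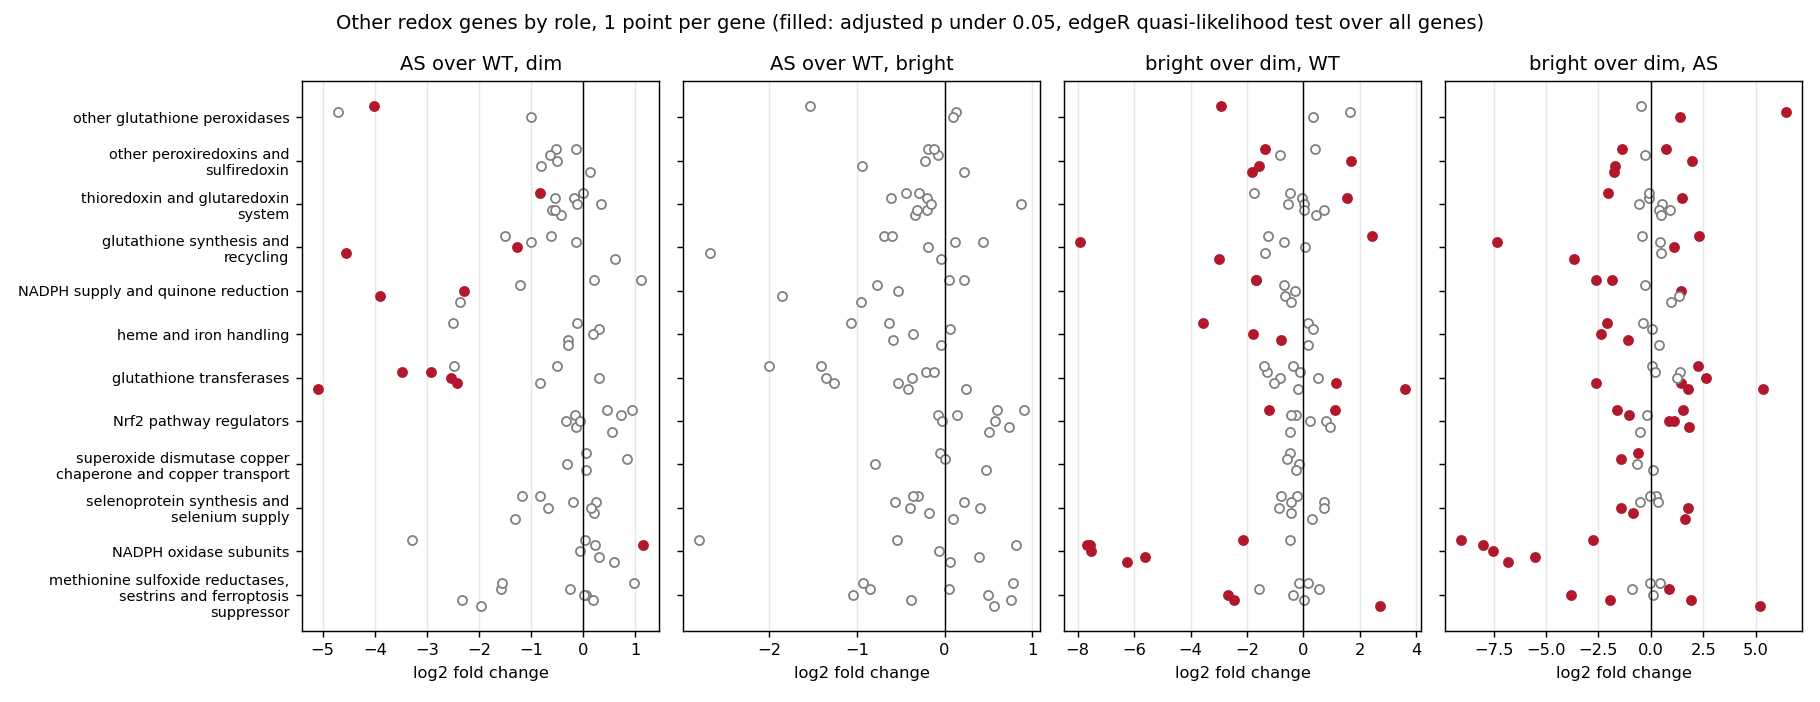
Log2 fold change (horizontal axis, scaled separately in each panel) of the other redox genes, with 1 point per gene in rows by role and filled points where the adjusted p was under 0.05. Most NADPH oxidase subunits lie far to the left in both bright over dim panels, with Nox4 at -0.46 in WT and not tested in AS. The glutathione transferases lie mostly to the left for AS over WT in the dim cells, and no point is filled for AS over WT in the bright cells.

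Between bright and dim cells the listed NADPH oxidase subunits moved together but for Nox4 (-0.46, SE 0.92, in WT, not tested in AS). Most of them produce superoxide in phagocytes. In WT 6 of 7 tested were lower in bright cells, against 11.5% of all genes, and in AS 6 of 6, against 26.5%, among them Cybb (-7.66, SE 0.38, in WT and -8.01, SE 0.32, in AS) and Rac2, the lowest of all 82 genes tested in AS (-9.03, SE 0.31, with 2 to 4 counts in each bright library). Their leukocyte expression is well known, and the leukocyte marker sums given above moved with them. The cystine transporter gene Slc7a11 was lowest in WT (-7.90, SE 0.60, with 8 to 21 counts in each bright library) and glutathione reductase, Gsr, was lower in both genotypes (-2.99, SE 0.32, in WT and -3.65, SE 0.19, in AS). Rac2 in AS and Slc7a11 in WT passed the filter on low counts through the dim cells, and the size of these folds rests on the few bright counts.

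Other enzymes were higher in the bright cells. Gstm2 had the highest log2 fold change in WT (3.60, SE 0.55), with 6 to 36 counts in the dim and 271 to 383 in the bright libraries. Gpx7, a peroxidase of the endoplasmic reticulum, had the highest in AS (6.46, SE 0.56), with 4 to 13 counts in AS-dim tdT and 468 to 1129 in AS-bright tdT. Both passed the filter on low counts through the bright cells, and the size of their folds rests on these few dim counts. In all, 7 of 83 redox genes were higher and 20 lower in WT, where 13.8% of all genes tested were higher and 11.5% lower. In AS 22 of 82 were higher and 26 lower, near the 28.6% and 26.5% of all genes. The other peroxiredoxins also split, with Prdx4 of the endoplasmic reticulum higher (1.70, SE 0.37, in WT and 1.96, SE 0.27, in AS) and Prdx5 and Prdx6 lower in both genotypes. Of the genes of selenoprotein synthesis and selenium supply, 0 of 8 passed in WT, where 25.3% of all genes did, and 4 of 8 in AS, where 55.1% did, Selenop (1.65, SE 0.17) and Scly (1.79, SE 0.33) higher and Secisbp2 (-0.85, SE 0.18) and Trit1 (-1.43, SE 0.38) lower. The ferritin genes Fth1 and Ftl1, which store the iron that heme oxygenase releases, were lower in bright cells of both genotypes, as Hmox1 was (Fth1 -1.78, SE 0.34, in WT and -2.35, SE 0.27, in AS). Among the Nrf2 regulators in AS, Nfe2l2, the gene of Nrf2 itself, was lower (-1.02, SE 0.19), as was its competitor Bach1 (-1.59, SE 0.23), and Keap1, Maff, Mafk and Sqstm1 were higher.

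The antioxidant response element is the short DNA motif that Nrf2 binds. Its core, TGACNNNGC, was searched on both strands in RefSeq promoters (GRCm38.p6, 250 bases before to 50 after each gene start), of which 13 belonged to 8 of the enzymes. Sod3 and Hmox1 had no promoter in the set and were not searched. The core was found in 3 of the 13 promoters, 1 each for Sod1, Prdx1 and Txnrd1, against 12.4% of all 32851 promoters. The windows show it in capitals, 5′ to 3′ on the strand of the gene, where in each case it reads as the reverse complement. Sod1 and Prdx1 are shown because both were higher in AS-bright tdT than in AS-dim tdT, and Txnrd1 because it did not pass there.
Sod1: ccaaggtggGCGTGGTCAgactcaggc
Prdx1: agggaaagcGCTGAGTCAtcccccgta
Txnrd1: tggatttttGCTTTGTCAttctgacac
The capitals lie at chr16:90220706-90220714 for Sod1, chr4:116685466-116685474 for Prdx1 and chr10:82859114-82859122 for Txnrd1, the second of 3 Txnrd1 promoters, all on the plus strand. They start 56, 133 and 92 bases before the gene start. In Prdx1 the core overlaps a match to the AP-1 site TGANTCA, which was held by 7.81% of all promoters. A match is a run of letters and was not tested for binding.

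Across the 12 libraries the genes with the most similar profiles were named by Pearson's r of log2 CPM, which describes libraries that share their sort gate and mouse. Gpx3 was closest to Tmem27 (r = 0.996), Slc5a2 (r = 0.995) and Slc34a1 (r = 0.994), and the latter pair are proximal tubule markers. Sod2 was closest to Cox5a, Acot2 and Erbb3 (r = 0.956 to 0.971), Cat to Mettl26, Ndufs1 and Mcrip2 (r = 0.951 to 0.957), and Gpx1 to Cox7c, Prdx5 and Tnfaip8 (r = 0.959 to 0.968). Cox5a, Cox7c and Ndufs1 encode subunits of the mitochondrial respiratory chain. Txnrd1 was closest to Ifngr2, Pde4b and Pdlim1 (r = 0.953 to 0.969), Hmox1 to Mxd1, Rpl28-ps1 and Antxr2 (r = 0.962 to 0.966), Sod1 to Nf2, Insig2 and BC017158 (r = 0.929 to 0.955), and Sod3 to Slc25a10 (r = 0.949) and Flrt1 (r = 0.948).

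Among the enzymes themselves Cat and Gpx3 had the highest correlation, r = 0.897, and Sod1 and Hmox1 the lowest, r = -0.69. The closest profiles to Prdx1 were those of Gm21399 (r = 0.991) and Gm7204 (r = 0.990), processed pseudogenes that held 2.61% to 3.35% and 1.57% to 1.96% as many counts as Prdx1, followed by 2210408F21Rik (r = 0.947). The closest to Gpx4 was its pseudogene Gpx4-ps2 (r = 0.978), with 10.9% to 14.9% as many counts, then Pfdn1 (r = 0.926). Reads of these genes and copies may have been split by the counting, which makes the levels of Prdx1 and Gpx4 uncertain to about these shares. Sod1 (chr16:90220754-90226329) overlaps Scaf4 and Txnrd1 (chr10:82833951-82897712) overlaps 2 genes on the other strand and Eid3 on its own strand, and the remaining 8 enzymes overlap no annotated gene.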

How the data were processed

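The authors aligned paired-end reads of poly-A libraries with STAR 2.6.0c to GRCm38.p5 with Gencode M16 and deposited raw counts per gene, which were used for all tests. They also deposited RPKM values, used here for levels between genes only. The log2 fold changes and mean log2 CPM, the likelihood ratio scores and the p-values deposited by the authors hold their own comparison of AS with WT and were not used. The authors filtered the rows by a rule that is not given in the sources used here, and whether the counting used strand is not given either.

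The 92 ERCC spike-in rows (0.0286% to 0.282% of a library) were left out. The authors filtered the dim and bright tables separately, so comparisons across them used the counts of the 15768 genes in both. In edgeR 4.0.16 (R 4.3.3) genes were kept by filterByExpr (minimum count 10), scaled by TMM and tested by glmQLFit and glmQLFTest. P values were adjusted after Benjamini and Hochberg across every gene tested, with a threshold of 0.05. SE is the log2 fold change divided by the square root of F. CPM is on 1 TMM scaling of all 12 libraries, so that a ratio of CPM means can differ slightly from a fitted fold. Adjusted p values in the text are from this test unless another test or setting (DESeq2 1.42.0, the likelihood ratio test, RLE scaling, the fit of all 12 libraries, the block, a covariate or a library left out) is named beside them.

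The main design has no block, and the replicate block fit pairs dim and bright libraries by mouse, as the labels do: deviations from the group means correlated at r = 0.104 to 0.296 in WT and 0.103 to 0.462 in AS within a mouse. Libraries of a group differed beyond sampling noise. Tests were checked on simulated counts. The enzymes, role lists, marker lists and named genes (all enzymes, companion genes past the threshold, and the 3 most correlated genes of each enzyme with average log2 CPM above 1) were chosen with earlier results of these data known. Some of the most correlated genes and the podocyte marker list are not reported here. Sequences are from Gencode M21 and RefSeq, on the same chromosome assembly. All per-sample columns were used, and each group held 3 mice.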

Additional observations from a re-analysis of the deposited data

Results flagged for a closer look

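Among the other redox genes the effect of the genotype differed between bright and dim cells for 4 of 83 tested (edgeR interaction test over all 12 libraries, adjusted over 15084 genes), and for none of the 10 antioxidant enzymes. Over all genes 3.77% passed this test, so that the count is near the background. The difference of log2 fold changes, bright minus dim, was 1.81 (SE 0.43, adjusted p = 0.0343) for Idh2, the mitochondrial NADPH-producing isocitrate dehydrogenase. It was 2.2 (SE 0.55, adjusted p = 0.0423) for Gstk1 and 2.04 (SE 0.45, adjusted p = 0.0247) for Mgst3, both glutathione transferases. It was 2.55 (SE 0.60, adjusted p = 0.0326) for Msrb3, a methionine sulfoxide reductase. In the dim cells AS was lower than WT by a log2 fold change of -2.29 for Idh2, -2.54 for Gstk1 and -2.42 for Mgst3, which passed, and -1.97 for Msrb3, which did not (adjusted p = 0.0768). In the bright cells none of the 4 passed, with log2 fold changes of -0.53, -0.38, -0.42 and 0.56. The proximal tubule, distal nephron and leukocyte marker sums differed between the genotypes in the dim cells, and their part in these differences was not tested. In the same interaction test 10 of 14 endothelial markers passed as higher, with a median difference of 2.63 on the log2 scale, while 0 of the proximal tubule, distal nephron and leukocyte markers passed.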

How the results depend on the processing

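The 6 enzymes called between bright and dim cells in AS numbered 6 to 7, and 0 were called for the difference between the genotype effects, under each alternative run for them, which did not include the marker covariates. For AS over WT in the dim cells 0 were called, but DESeq2 called 4, the likelihood ratio test 4, the fit of all 12 libraries 2, and leaving out 1 library gave 0 to 4. In the bright cells the count of 0 became 2 with DESeq2, 3 with the leukocyte covariate and 0 to 1 without 1 library. In WT, 2 enzymes were called between bright and dim cells, 5 with the replicate block, in which the mouse is the block, and 1 to 4 without 1 library. DESeq2, the likelihood ratio test, RLE scaling and the fit of all 12 libraries each called 3, with Gpx1 as the one added. The replicate block changed no other call among the 10 enzymes. For none of the alternatives in this section is the share of all genes given, so that their counts have no background beside them.

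Some directions turned. For AS over WT in the dim cells the log2 fold change of Txnrd1 was -0.0080 with RLE scaling and -0.0080 with DESeq2. With the proximal tubule covariate Sod1 was at 0.39, Sod3 at 1.43, Gpx3 at 0.78 and Txnrd1 at -0.37, and in the bright cells Sod3 was at 1.17, Gpx3 at 0.58 and Gpx4 at 0.10. With the leukocyte covariate in the dim cells Sod1 was at 0.96, Sod2 at 0.082, Sod3 at 1.56, Cat at 0.033, Gpx1 at 0.19, Gpx4 at 0.57, Prdx1 at 0.070 and Txnrd1 at -0.48. Hmox1 kept its direction there but moved from -0.44 to -2.68 with the proximal tubule and -1.97 with the leukocyte covariate, and did not pass. The cause was not tested. Without 1 library the log2 fold changes that turned ran, for AS over WT in the dim cells, from -0.39 to 0.12 for Sod1, -0.14 to 0.073 for Txnrd1 and -0.84 to 0.49 for Hmox1. In the bright cells they ran from -1.99 to 0.40 for Sod3 and -0.50 to 0.23 for Gpx4. Between bright and dim cells in AS, Gpx3 ran from -3.15 to 2.6. For the difference of effects, Sod2 ran from -0.35 to 0.16, Gpx1 from -0.43 to 0.25 and Gpx3 from -1.96 to 3.77.

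Of the other redox genes, the 12 called for AS over WT in the dim cells became 22 with DESeq2, 21 with all 12 libraries in one fit, 7 with the replicate block, whose numbers share no mouse across the genotypes, and 0 with either covariate. The older form of the quasi-likelihood fit, an alternative added after the data were seen, called 5 of them. Sod3, with 1 to 100 counts per library, and Gpx3, whose level followed 1 mouse of each genotype, were the least precise.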
